A study of Mus musculus with 18 samples.

Results

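The muscle-type miRNAs described here are mmu-miR-206-3p, mmu-miR-133b-3p and mmu-miR-1a-3p, taken by name from a mouse brain small-RNA sequencing series that lists 1841 mature miRNAs. Of these 3, mmu-miR-206-3p and mmu-miR-1a-3p were measured in all 18 libraries, and mmu-miR-133b-3p was not analysed here; its hairpin is represented by the other arm, mmu-miR-133b-5p. Hippocampus came from CyrKO mice, which lack the long noncoding RNA Cyrano, and from WT mice. Cerebellum came from double mutants carrying CyrKO together with Cdr1as671, from Cdr1as671 mice, from CyrKO mice and from WT mice. Cdr1as671 is a deletion of 18 nt at the site of the circular RNA Cdr1as that pairs with miR-671. Each of the 6 groups held 3 libraries from male C57BL/6J mice aged 1 month, described as biological replicates, and every library was made from whole, bulk tissue.

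MicroRNAs of the miR-1 and miR-206 family guide Argonaute to messages that match their seed, the stretch of bases 2 to 8. Both miRNAs belong to 1 family and are best known from muscle, where they promote differentiation. miR-1a is abundant in heart and skeletal muscle, whereas miR-206 is made mainly in skeletal muscle. miR-206 and miR-133b come from 1 cluster, and miR-1a is made from hairpins elsewhere that are each paired with a miR-133a hairpin. In the mouse genome (GRCm38, GENCODE annotation) Mir206 lies at chr1:20679010-20679082 and Mir133b at chr1:20682769-20682887, both on the plus strand with 3686 bases between them. Both hairpins overlap exons of Gm28653, a long intergenic noncoding RNA at chr1:20669882-20684298 on the same strand. Mir1a-1 lies at chr2:180389048-180389124 on the plus strand, outside any other annotated gene.

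These arms of the cluster and of Mir1a-1 are shown because their levels in the tissues are described below. They are from RefSeq (GRCm38.p6, 5′ to 3′), with the seed in capitals.
mmu-miR-206-3p: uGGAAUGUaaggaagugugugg
mmu-miR-206-5p: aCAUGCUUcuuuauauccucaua
mmu-miR-133b-5p: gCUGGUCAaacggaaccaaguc
mmu-miR-1a-1-5p: aCAUACUUcuuuauaugcccaua
The miR-206-5p and miR-1a-1-5p arms were identical at 20 of 23 bases, and differed by G5A, C17G and U19C, counted from the 5′ end with the miR-206-5p base first. The seed of miR-206-3p was searched in the RefSeq sequences of 1573 of the 1841 listed miRNAs, which do not include its family mate miR-1a-3p. Besides miR-206-3p itself, mmu-miR-6349 and mmu-miR-6382 carried it, and both had 0 reads in all 18 libraries. The Mir206 hairpin is printed with the 3p arm, bases 46 to 67, in capitals.
Mir206 hairpin: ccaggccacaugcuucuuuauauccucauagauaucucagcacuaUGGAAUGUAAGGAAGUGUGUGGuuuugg

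Library totals ran between 8591172 and 15305829 miRNA reads, and levels are given as CPM, counts scaled to a library total of 1000000 of those reads. Summed CPM of 3 neuronal miRNAs (miR-124-3p, miR-9-5p and miR-128-3p) was 242600 to 273000 in hippocampus and 303100 to 367600 in cerebellum. As a check of the genotype labels, miR-7a-5p, which Cyrano is known to destabilise, was higher in CyrKO than in WT, with a log2 fold change of 5.34 in cerebellum and 2.53 in hippocampus (edgeR adjusted p = 2.52e-11 and 1.07e-07). Library 2 of the Cdr1as671 cerebellum stood apart from the other 11 cerebellum libraries in miR-1a-3p, so results that rest on it are given with and without it where both were run.

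miR-206-3p was over 100 times lower in hippocampus than in cerebellum. In CyrKO hippocampus it stood at 4.92, 3.97 and 5.02 CPM, and in WT hippocampus at 6.75, 4.51 and 6.04 CPM. The double mutant cerebellum had 790.6, 888 and 975 CPM and the Cdr1as671 cerebellum 1232, 1099 and 972 CPM. CyrKO cerebellum had 954, 791 and 939 CPM and WT cerebellum 838, 968 and 897 CPM. The highest hippocampus library, at 6.75 CPM, was thus far below the lowest cerebellum library, at 791 CPM. In WT mice the mean was 5.77 ± 1.15 CPM in hippocampus and 901 ± 65.2 CPM in cerebellum (SD, n = 3 each), a ratio of mean CPM of 156 in favour of cerebellum.

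**Figure D1:**
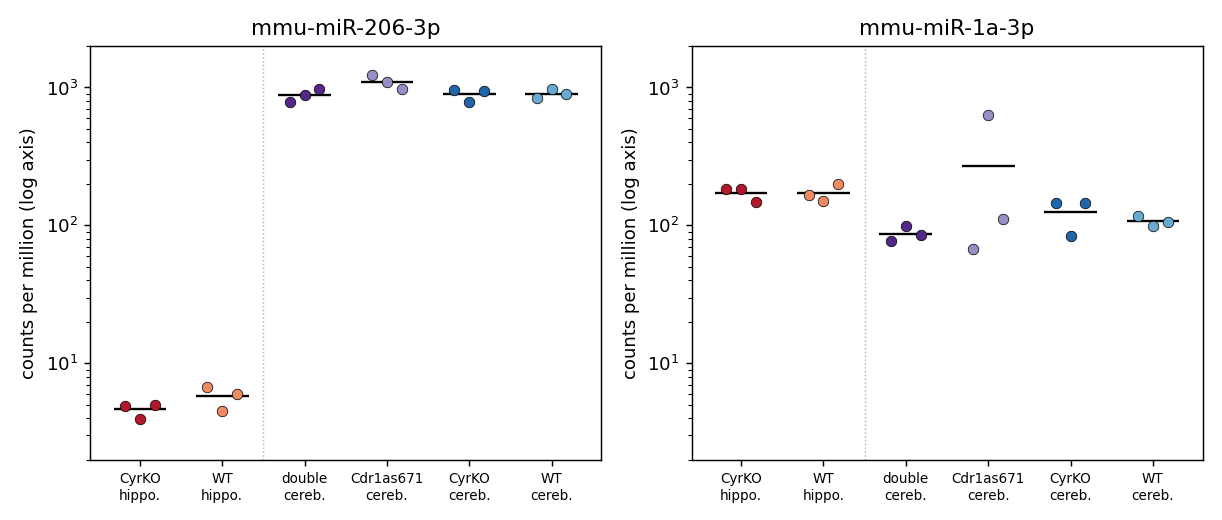
Level of miR-206-3p (left) and miR-1a-3p (right) in CPM on a log axis, 1 point for each of the 18 libraries and a line at each group mean. miR-206-3p lies between 3.97 and 6.75 CPM in hippocampus and between 791 and 1232 CPM in cerebellum, while miR-1a-3p lies between 67.8 and 201 CPM except in Cdr1as671 library 2, at 630 CPM.

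In bulk tissue, fewer cells that contain a miRNA and less of it per cell cannot be told apart. The hippocampal signal was small and still counted: each library gave 35 to 66 reads of miR-206-3p. For the lowest of them, CyrKO library 2, the 95% exact binomial interval was 2.76 to 5.52 CPM. Such intervals cover counting error only. In WT cerebellum miR-206-3p was the 86th most abundant of the 1252 miRNAs with a read, and in WT hippocampus it was the 498th of 1273.

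The other member behaved differently. miR-1a-3p was readily counted in both tissues, at 183, 182 and 149 CPM in CyrKO hippocampus and 166, 150 and 201 CPM in WT hippocampus. The double mutant cerebellum had 77.0, 98.6 and 85.1 CPM, and the Cdr1as671 cerebellum had 67.8, 630 and 112 CPM. CyrKO cerebellum had 145, 83.8 and 144 CPM and WT cerebellum 118, 98.9 and 107 CPM. In CPM every hippocampus library was above every cerebellum library but the one at 630 CPM, the closest being 149 CPM in CyrKO hippocampus and 145 CPM in CyrKO cerebellum. Its place by abundance was 228 in both hippocampus groups and 221 in WT cerebellum.

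Ordered by mean level, miR-206-3p was highest in Cdr1as671 cerebellum (1101 ± 130 CPM), then in WT (901 ± 65.2), CyrKO (895 ± 90.4) and double mutant cerebellum (884 ± 92.1), then in WT (5.77 ± 1.15) and CyrKO hippocampus (4.64 ± 0.58; SD, n = 3 each). The WT, CyrKO and double mutant cerebellum overlapped, as did the 2 hippocampus groups. Cdr1as671 cerebellum overlapped the double mutant, at 972 CPM in Cdr1as671 library 3 and 975 CPM in double mutant library 3. For miR-1a-3p the order began with Cdr1as671 cerebellum (270 ± 313 CPM), whose spread exceeded its mean and which overlapped the next groups, WT (172 ± 26.1) and CyrKO hippocampus (171 ± 19.7). That first place rested on library 2, at 630 CPM. Libraries 1 and 3 of the group, at 67.8 and 112 CPM, were below every hippocampus library. CyrKO (125 ± 35.3) and WT cerebellum (108 ± 9.51) overlapped. Double mutant cerebellum (86.9 ± 10.9) had the lowest mean, with all 3 libraries under those of WT, but it overlapped CyrKO and Cdr1as671 cerebellum.

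Between tissues, miR-206-3p had a log2 fold change of -7.84 ± 0.17 (SE) in WT hippocampus over WT cerebellum (edgeR quasi-likelihood test with TMM scaling, Benjamini-Hochberg adjusted p = 2.26e-15). In CyrKO mice the value was -8.15 ± 0.17 (edgeR adjusted p = 1.48e-15). By size this was the second lowest of 746 miRNAs tested in WT and the lowest in CyrKO. Being lower in hippocampus was common in itself: 32.4% of the miRNAs tested in WT and 33.2% of those tested in CyrKO passed an adjusted p of 0.05 in that direction, and 37.5% and 38.9% passed in the other.

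The tissue change of miR-1a-3p did not pass that test, at 0.13 ± 0.17 in WT (edgeR adjusted p = 0.507) and -0.11 ± 0.17 in CyrKO (edgeR adjusted p = 0.579). This outcome turned on the scaling. TMM scaling lowered the median log2 fold change of all miRNAs tested by 0.55 in WT and 0.58 in CyrKO, relative to scaling by library totals alone. With library totals alone miR-1a-3p was higher in hippocampus by 0.68 in WT and 0.46 in CyrKO (edgeR adjusted p = 0.00567 and 0.0398), beside a median of 0.58 and 0.68 over all miRNAs tested. Under that scaling the calls in WT were 402 higher and 126 lower in hippocampus, against 280 higher and 242 lower with TMM, and in CyrKO 419 and 126 against 290 and 248. miR-206-3p passed with either scaling.

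**Figure D2:**
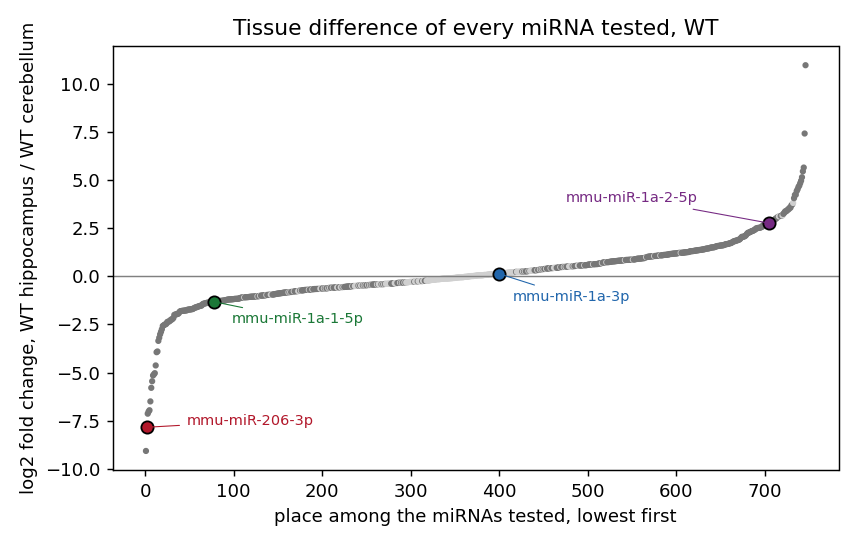
Log2 fold change of WT hippocampus over WT cerebellum (vertical axis) for the 746 miRNAs tested, in order (horizontal axis); dark points passed an adjusted p of 0.05 and coloured points are the named arms. miR-206-3p is second from the low end at -7.84 and miR-1a-3p is in the middle at 0.13, while the 5p arms of the miR-1a hairpins lie on opposite sides, at -1.32 and 2.76.

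Because both members are counted in 1 library, their ratio needs no scaling between tissues. The log2 ratio of miR-206-3p to miR-1a-3p counts, with 0.5 added to each, was -5.21, -5.50 and -4.88 in CyrKO hippocampus and -4.61, -5.04 and -5.05 in WT hippocampus. In CyrKO cerebellum it was 2.71, 3.24 and 2.70, and in WT cerebellum 2.83, 3.29 and 3.07. miR-1a-3p therefore outnumbered miR-206-3p by 24.6 to 45.9 times in hippocampus, whereas in these 6 cerebellum libraries miR-206-3p outnumbered miR-1a-3p by 6.51 to 9.79 times. The difference of the log2 ratio, hippocampus minus cerebellum, was -8.02, with a mean of -5.05 ± 0.30 in hippocampus and 2.97 ± 0.26 in cerebellum (SD, n = 6 each). An exact two-sided permutation of tissue labels within genotype gave p = 0.005, the smallest that design allows.

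**Figure D3:**
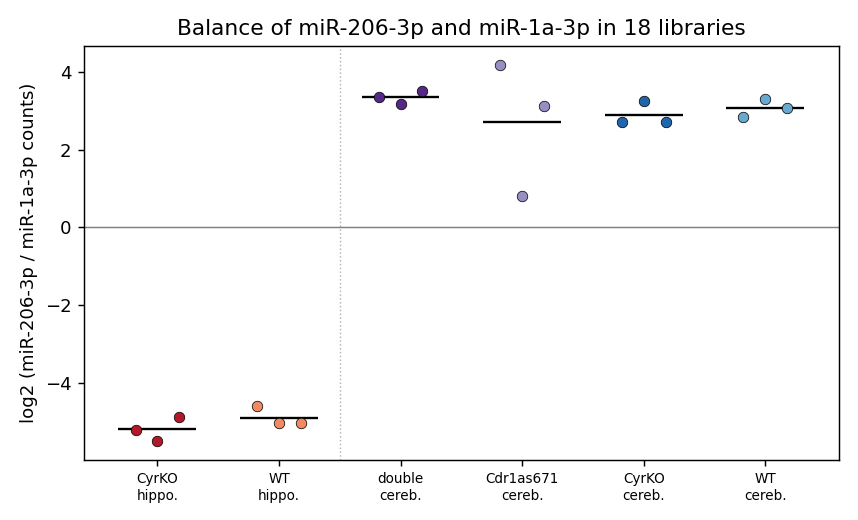
Log2 ratio of miR-206-3p to miR-1a-3p counts (vertical axis) in each of the 18 libraries, by group, with a line at each group mean; 0 marks equal counts. The hippocampus libraries lie between -5.50 and -4.61 and the cerebellum libraries between 0.80 and 4.18, the low one being Cdr1as671 library 2.

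The second hairpin of the cluster was seen through its minor arm. mmu-miR-133b-5p had 3, 4 and 7 reads in double mutant cerebellum, 5, 9 and 8 in Cdr1as671, 5, 3 and 7 in CyrKO and 8, 11 and 4 in WT cerebellum, and 0 in every hippocampus library. Its neighbour's minor arm, mmu-miR-206-5p, had between 1 and 7 reads in each of the 12 cerebellum libraries and also 0 in the 6 hippocampus libraries. For miR-133b-5p the absence in hippocampus, set against a floor of 3 reads over the 6 libraries (0.0489 CPM), made the pooled level at least 11.8-fold lower than the 0.575 CPM pooled over the 12 cerebellum libraries. For miR-206-5p the level was at least 6.998-fold lower than 0.342 CPM on the same floor.

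The depth limits what the zeros can show for miR-206-5p. Cerebellum held 44 reads of miR-206-5p to 120337 reads of miR-206-3p, or 0.366 per 1000. At that proportion the 317 reads of miR-206-3p in hippocampus would be accompanied by 0.116 reads of miR-206-5p, so its presence there was not detectable at this depth. The miR-206-5p reads were also few enough that the cerebellum groups, at 8 reads in the double mutant, 5 in Cdr1as671, 19 in CyrKO and 12 in WT, were not compared by the whole-table test.

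**Figure D4:**
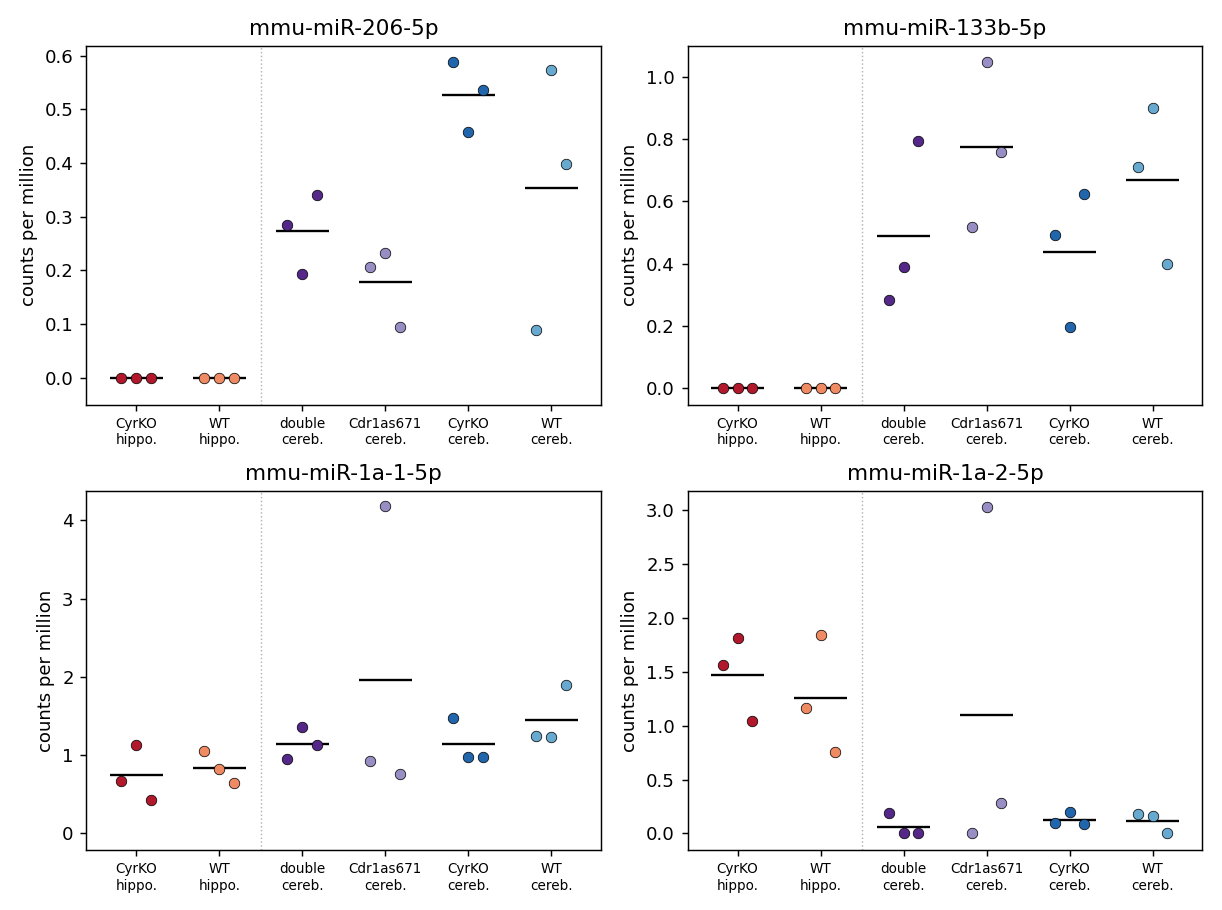
Level in CPM (vertical axis, linear) of 4 minor arms in each of the 18 libraries, with a line at each group mean. The arms of the miR-206 and miR-133b hairpins are at 0 in all 6 hippocampus libraries, and miR-1a-2-5p is at 0.755 to 1.84 CPM there but at 0 to 0.284 CPM in all cerebellum libraries except Cdr1as671 library 2, at 3.02 CPM.

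The miR-1a hairpins give the same 3p arm but distinguishable 5p arms, and these differed between tissues. mmu-miR-1a-2-5p had 21, 16 and 12 reads in CyrKO hippocampus and 10, 18 and 7 in WT hippocampus, against 1, 3 and 1 in CyrKO cerebellum and 2, 2 and 0 in WT cerebellum. mmu-miR-1a-1-5p had 9, 10 and 5 reads in CyrKO hippocampus and 9, 8 and 6 in WT hippocampus, against 15, 15 and 11 in CyrKO cerebellum and 14, 15 and 19 in WT cerebellum. The 1a-2 arm thus held 63.0 ± 8.23% of the miR-1a 5p reads in hippocampus and 9.25 ± 5.78% in WT and CyrKO cerebellum (SD, n = 6 each; exact two-sided permutation within genotype p = 0.005, the smallest possible, in a test added after the values were seen). The cerebellum groups outside that test had 35.4% (Cdr1as671) and 5.56% (double mutant) of their pooled reads from it. The Cdr1as671 share came mostly from library 2, with 26 reads of miR-1a-2-5p and 36 of miR-1a-1-5p. Libraries 1 and 3 had 0 and 3 reads of miR-1a-2-5p against 9 and 8 of miR-1a-1-5p (0 and 27.3%).

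In the whole-table test miR-1a-2-5p was higher in hippocampus by 2.76 ± 0.62 (SE) on the log2 scale in WT and 2.75 ± 0.56 in CyrKO (edgeR adjusted p = 0.000933 and 0.000392). miR-1a-1-5p had changes of -1.32 ± 0.36 in WT and -1.22 ± 0.37 in CyrKO (edgeR adjusted p = 0.00379 and 0.00753), and its mean CPM was also lower in hippocampus, at 0.838 in WT hippocampus and 1.45 in WT cerebellum. These arms have few reads, the arms are alike in sequence, and how reads that match several arms were assigned is not given in the sources used here. For both arms together, 12.6 reads per 1000 miR-1a-3p reads were counted in CyrKO hippocampus, 12.2 in WT hippocampus, 10.5 in CyrKO cerebellum and 14.4 in WT cerebellum.

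Other muscle miRNAs went in either direction between tissues. miR-208b-3p, encoded within a slow myosin gene, was higher in hippocampus by 3.73 ± 0.57 in WT and 4.72 ± 0.55 in CyrKO (log2, SE; edgeR adjusted p = 2.18e-05 and 1.1e-06), at 1.86 to 4.99 CPM in hippocampus and 0 to 0.349 CPM in cerebellum. miR-499-5p, also encoded within a myosin gene, was at 18.9 to 21.5 CPM in hippocampus and 17.6 to 24.5 CPM in cerebellum. Its TMM-scaled change of -0.49 ± 0.11 in WT passed the test (edgeR adjusted p = 0.00125), but scaled to library totals its mean was higher in hippocampus, at 20.4 CPM in WT hippocampus and 19.5 CPM in WT cerebellum. The 3 of 6 listed muscle markers present in the tables (miR-208a-3p, miR-208b-3p and miR-499-5p) summed to 22 to 26.7 CPM in hippocampus and 17.7 to 24.7 CPM in cerebellum. Most of each sum was miR-499-5p. miR-378a-5p was at 44.7 to 56.4 CPM in hippocampus and 105 to 200 CPM in cerebellum, with a log2 change of -1.98 ± 0.12 in WT (edgeR adjusted p = 4.28e-10). miR-1b-3p had 3.38 to 5.72 CPM in hippocampus and 1.96 to 3.60 CPM in cerebellum, and its TMM-scaled change did not pass in WT (edgeR adjusted p = 0.814) or CyrKO (edgeR adjusted p = 0.421). Its other arm, miR-1b-5p, had 14 to 24 reads (1.51 to 2.15 CPM) in hippocampus and 2 to 14 reads (0.178 to 0.915 CPM) in cerebellum. The log2 change of miR-1b-5p was 1.32 ± 0.37 in WT (edgeR adjusted p = 0.00428) and 0.50 ± 0.31 in CyrKO (edgeR adjusted p = 0.152).

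Marker lists of other cell types also differed in level between the tissues or among libraries. The erythroid list (3 of 3 in the tables) summed to 2583 to 3574 CPM in hippocampus and 603 to 32950 CPM in cerebellum, and the vessel list (6 of 6) to 11310 to 14800 CPM in hippocampus and 7764 to 8946 CPM in cerebellum. Mesenchymal and meningeal miRNAs (4 of 6) summed to 72.4 to 143 CPM in hippocampus and 50.9 to 109 CPM in cerebellum. The choroid plexus list (6 of 6) summed to 3554 to 16660 CPM in hippocampus and 7470 to 11530 CPM in cerebellum. Their part in the tissue difference was not tested.

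The miRNAs whose log2 CPM followed miR-206-3p most closely over the 18 libraries, among those with a mean of at least 10 CPM, were miR-194-5p (Pearson r = 0.997), miR-195a-5p (0.996), miR-216b-5p (0.995), miR-217-5p (0.995) and miR-216a-5p (0.994). The most opposite were miR-551b-3p (-0.998), miR-7080-3p (-0.997) and miR-7a-2-3p (-0.997). These values describe the split between 2 tissues, since the libraries form 2 clusters. Within the 12 cerebellum libraries r with miR-206-3p was 0.085 for miR-194-5p, 0.20 for miR-195a-5p, -0.38 for miR-216b-5p, -0.028 for miR-217-5p and -0.60 for miR-216a-5p. The size of the tissue difference also varied among them: miR-216b-5p had 1.58 CPM in WT hippocampus and 142 CPM in WT cerebellum, whereas miR-194-5p had 405 and 1585 CPM.

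Loss of Cyrano was followed by no called change of either member. In CyrKO against WT cerebellum the log2 fold change was -0.0078 ± 0.096 (SE) for miR-206-3p and 0.21 ± 0.19 for miR-1a-3p (edgeR adjusted p = 0.999 for both). In CyrKO against WT hippocampus it was -0.32 ± 0.20 for miR-206-3p (edgeR adjusted p = 0.846) and -0.029 ± 0.12 for miR-1a-3p (edgeR adjusted p = 0.959). Neither member was among the 0.898% of miRNAs called in cerebellum or the 0.57% called in hippocampus. Without WT hippocampus library 3 the hippocampal calls were 7 rather than 4. The CyrKO effect in hippocampus minus that in cerebellum was -0.32 ± 0.19 for miR-206-3p and -0.24 ± 0.24 for miR-1a-3p (edgeR adjusted p = 0.942 and 0.968), where 0.402% of miRNAs passed.

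Pooled over both tissues and both Cdr1as backgrounds, libraries with CyrKO were lower in miR-206-3p by a mean log2 CPM difference of -0.20, counted within background (n = 9 each; exact two-sided permutation p = 0.0362, unadjusted and 1 of 4 such tests). A Benjamini-Hochberg adjustment over the members, planned for these 4 tests, was not applied. The p rose to 0.0725 with TMM-scaled CPM and to 0.0547 when labels were exchanged only between libraries of the same number. It was also above 0.05, at 0.0522 to 0.0772, without CyrKO hippocampus library 2, WT hippocampus library 1 or 3, double mutant library 1, Cdr1as671 library 1 or 2, CyrKO cerebellum library 2 or WT cerebellum library 2. For miR-1a-3p the CyrKO difference was -0.27 (n = 9 each; exact permutation p = 0.662), and 0.051 without Cdr1as671 library 2 (exact permutation p = 0.705).

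miR-206-3p was higher in each Cdr1as671 library, at 972 to 1232 CPM, than in each WT cerebellum library, at 838 to 968 CPM. The closest pair, at 972 and 968 CPM, was nearly equal. Its unadjusted edgeR p was 0.0461, and 137 of the 665 miRNAs tested were below 0.05 in this way. The log2 fold change of miR-206-3p was 0.25 ± 0.11 (SE, edgeR adjusted p = 0.234), while 2.26% of miRNAs were called. Without Cdr1as671 library 3 the change was 0.31 and passed (edgeR adjusted p = 0.0436), in a fit that called 112 miRNAs, against 15 with all libraries. On the CyrKO background the double mutant and CyrKO cerebellum overlapped, with a change of 0.033 ± 0.11 for miR-206-3p (edgeR adjusted p = 0.879; 2.33% called).

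For miR-1a-3p the change in Cdr1as671 over WT was 1.24 ± 0.96 (SE; edgeR adjusted p = 0.552), the highest of 665 miRNAs by size, and it came from 1 library: without library 2 it was -0.26 (edgeR adjusted p = 0.643). The double mutant over Cdr1as671 likewise had -1.49 ± 0.72 (edgeR adjusted p = 0.61; 0.727% called), and 0.026 without library 2. The interaction of both alleles was -1.71 ± 1.00 (edgeR adjusted p = 0.863; 0.145% called), and -0.20 without library 2. For miR-206-3p the double mutant over Cdr1as671 had -0.21 ± 0.11 (edgeR adjusted p = 0.61) and the interaction was -0.22 ± 0.15 (edgeR adjusted p = 0.863).

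Set against WT, the double mutant had -0.23 ± 0.12 (SE) for miR-1a-3p (edgeR adjusted p = 0.313) and 0.059 ± 0.092 for miR-206-3p (edgeR adjusted p = 0.746), with 2.57% of miRNAs called. With the replicate block, 16 miRNAs were called higher and 19 lower in the double mutant, against 13 higher and 4 lower without it, and both members stayed uncalled at -0.23 and 0.052 (edgeR adjusted p = 0.332 and 0.761). Although its libraries did not overlap with WT for miR-1a-3p, at 77.0 to 98.6 CPM in the double mutant and 98.9 to 118 CPM in WT, the closest pair was nearly equal. Double mutant over CyrKO was -0.47 ± 0.71 for miR-1a-3p (edgeR adjusted p = 0.742). That contrast used the fit of the 4 cerebellum groups, so its SE also takes in the spread of Cdr1as671 library 2. It was not run without that library. In the fits with WT alone the SE for miR-1a-3p was 0.12 for the double mutant and 0.19 for CyrKO. Pooled over Cyrano genotypes, the Cdr1as671 difference in log2 CPM was 0.13 for miR-206-3p (n = 6 each; exact two-sided permutation p = 0.18) and 0.084 for miR-1a-3p (n = 6 each; exact permutation p = 0.95). Without Cdr1as671 library 2 the miR-1a-3p difference was -0.39 (exact permutation p = 0.095), and without CyrKO cerebellum library 2 it was -0.047 (exact permutation p = 0.975). In the authors' deposited table the Cdr1as671 over WT log2 fold change was 0.26 for miR-206-3p (adjusted p = 0.156) and 1.25 for miR-1a-3p (adjusted p = 0.408).

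**Figure D5:**
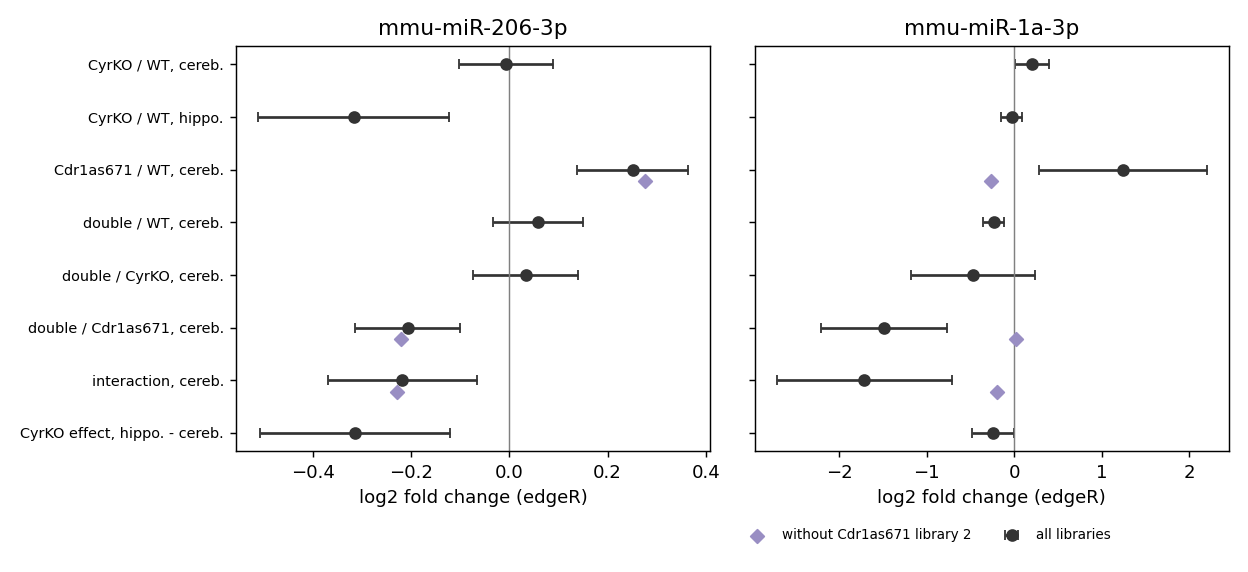
Log2 fold change of each member (horizontal axis; scales differ between panels) in 8 genotype comparisons, the first-named group over the second, with bars of 1 SE; diamonds leave out Cdr1as671 library 2. miR-206-3p stays between -0.32 and 0.25, and the wide miR-1a-3p values of 1.24, -1.49 and -1.71 become -0.26, 0.026 and -0.20 without that library.

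The log2 ratio of the members did not separate any mutant group from WT. The mean difference was -0.18 for CyrKO in cerebellum, -0.30 for CyrKO in hippocampus, -0.36 for Cdr1as671 and 0.28 for the double mutant. With 3 libraries against 3 the exact two-sided permutation test cannot go below 0.1; it gave 0.5, 0.4, 0.9 and 0.2, and 0.667, 0.667, 0.9 and 0.667 after Benjamini-Hochberg adjustment over these 4 comparisons. The Cdr1as671 value was 0.59 without its library 2.

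Library 2 of Cdr1as671 had 630 CPM of miR-1a-3p (5418 reads), 6.35 times the median of the other 11 cerebellum libraries, which lay between 67.8 and 145 CPM. Both 5p arms were high there: 36 reads of miR-1a-1-5p against 8 to 19 in the other cerebellum libraries, and 26 reads of miR-1a-2-5p against 0 to 3. The 5p arms together had 11.4 reads per 1000 reads of the 3p arm, within the 7.43 to 17.7 seen across WT and CyrKO cerebellum. The 1a-2 arm made up 41.9% of the 5p reads there, and 0 to 27.3% in the other cerebellum libraries. Its miR-206-3p, at 1099 CPM, was 1.17 times the median of the others. Its muscle list sum was 18.4 CPM, within 17.7 to 24.7 CPM, but 18.0 CPM of that was miR-499-5p. Since miR-499-5p was at similar levels in both tissues, the sum says little about the other muscle markers. Of these, miR-208a-3p was at 0 as in the other Cdr1as671 libraries. miR-208b-3p was at 3 reads (0.349 CPM), the highest CPM of the 12 cerebellum libraries.

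Of 433 miRNAs with at least 10 CPM in a cerebellum library, 7 were over 2-fold above the median of the other libraries in this one and 9 over 2-fold below it. The count above was also 7 in library 1 of WT, of CyrKO and of the double mutant, so the number does not set library 2 apart. Besides miR-1a-3p these were miR-1298-5p (280 CPM against 2.50 to 205 CPM), miR-448-3p, miR-1264-3p, miR-1264-5p, miR-764-5p and miR-34b-3p. For miR-448-3p library 2 had 29.54 CPM and the highest other cerebellum library 24.14 CPM. For miR-1264-3p these were 45.58 and 34.88 CPM, for miR-1264-5p 25.35 and 15.98 CPM, and for miR-34b-3p 75.12 and 59.83 CPM. miR-764-5p had 10.12 CPM there against 0.7187 to 7.279 CPM, so it met the 10 CPM minimum through library 2 alone. The choroid plexus list sum of library 2, 11530 CPM, was above the 7470 to 10560 CPM of the other cerebellum libraries. Its erythroid sum, 603 CPM, was below their 783 to 32950 CPM. The part of these in the miR-1a-3p level was not tested.

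miR-1a-3p had no close companion over the 18 libraries: the nearest were miR-150-5p (r = 0.62), miR-100-5p (0.55), miR-1264-5p (0.55), miR-1264-3p (0.54) and miR-1298-3p (0.54). The most opposite were miR-879-5p (-0.60), miR-144-3p (-0.54) and miR-144-5p (-0.53). Without Cdr1as671 library 2 the nearest over 17 libraries were others, led by miR-190a-3p at 0.92, whose r over all 18 was 0.36. Within the 12 cerebellum libraries, library 2 included, its r was 0.091.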

How the data were processed

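Small RNAs of 18 to 32 nt were sequenced from Trizol-extracted tissue, per the labels' protocols. Adapter trimming used cutadapt and the authors' comparisons used DESeq2 1.10, per the submitters' processing notes; neither the aligner nor the genome build is given in the sources used here. The deposited tables hold raw miRNA counts per library, normalized values (a signal: counts divided by 1 size factor per library, checked to 0.001%), log2 fold changes with their standard errors on a log2 scale, and p-values with adjusted p-values, per the file headers. The WT cerebellum columns recur in 3 tables, and the 6 repeat columns were identical.

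Counts were tested with edgeR 4.0.16 (quasi-likelihood, TMM factors, filterByExpr, minimum count 10), on R 4.3.3, over all miRNAs, with p-values adjusted by the Benjamini-Hochberg method and called at 0.05. The first 4 mutant against WT comparisons used 6 libraries each; the others used the 4 cerebellum groups, or WT and CyrKO in both tissues. Both measured members passed the filter in every main fit. In CyrKO against WT hippocampus miR-206-3p was under the alternative filter of a mean of at least 10 CPM. DESeq2 1.42.0 was an alternative. Ratios and pooled genotype differences used log2 of the count or CPM plus 0.5, with exact permutations in Python 3.11.15. The edgeR steps were tested on simulated data. Other choices tried were RLE factors, library totals, other low-count filters, leaving out the 10 most abundant miRNAs, a pseudocount of 5 and leaving out each library.

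Because mmu-miR-133b-3p was not analysed here, the ratio to miR-1a-3p uses miR-206-3p alone. The members, marker lists and tests were chosen with earlier results of these data known. The test on the miR-1a 5p arms was added after its values were seen. Arms, relatives and other muscle miRNAs were named from a list, and companions by the 5 highest and 3 lowest correlations. P-values measure the spread between libraries of a group. Same-numbered libraries deviated together in every pair for CyrKO against WT cerebellum (r of 0.567, 0.389 and 0.17 over 441 miRNAs) and double mutant against WT cerebellum (0.681, 0.449 and 0.545). The numbers may therefore pair those libraries, from the data alone. With 3 libraries a group and the same WT libraries in both comparisons, this is weak ground. The main tests were unpaired, and the replicate block, which matches same-numbered libraries, was an alternative. In the other comparisons checked (CyrKO against WT hippocampus, Cdr1as671 against WT, and the tissues in WT and in CyrKO) at least 1 pair was below 0.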

Additional observations from a re-analysis of the deposited data

How the results depend on the processing

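The tissue change of miR-206-3p kept its direction and passed the threshold under every alternative run, at -7.96 to -7.64 in WT and -8.26 to -8.00 in CyrKO without 1 library. That of the ratio was -8.10 to -7.93, and the replicate block left it at -8.02 (exact permutation p = 0.0312, the smallest possible there). With library totals alone miR-1a-3p was higher in hippocampus by 0.68 in WT and 0.46 in CyrKO, and leaving out 1 library gave -0.30 to 0.012 in CyrKO with TMM.

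For CyrKO against WT cerebellum the near-zero miR-206-3p change became positive with RLE factors (0.012), no filter (0.018), a mean of at least 10 CPM (0.019), without the 10 most abundant miRNAs (0.0082), with DESeq2 and in the authors' deposited table (0.0091 in both), and with 12 libraries in 1 fit (0.011); leaving out 1 library gave -0.048 to 0.070. With library totals alone miR-206-3p was at -0.027 in double mutant over WT and -0.016 in double mutant over CyrKO; leaving out 1 library gave -0.026 to 0.15 and -0.0075 to 0.17. Where uncalled changes kept their direction, ranges without 1 library were -0.47 to -0.19 for miR-206-3p in CyrKO over WT hippocampus, 0.093 to 0.42 for miR-1a-3p in CyrKO over WT cerebellum, -0.27 to -0.096 for miR-206-3p in double mutant over Cdr1as671, -0.27 to -0.069 for its interaction and -0.48 to -0.15 for its CyrKO effect in hippocampus minus cerebellum. For miR-1a-3p they were -0.34 to -0.14 in double mutant over WT, -0.65 to -0.30 over CyrKO, -0.49 to -0.13 for that difference and 0.059 to 0.27 for WT tissues. The others were 0.17 to 0.31 for miR-206-3p in Cdr1as671 over WT and -0.12 to 0.11 for miR-1a-3p in CyrKO over WT hippocampus. For miR-1a-3p they were -0.26 to 1.71 in Cdr1as671 over WT, -1.93 to 0.026 in double mutant over Cdr1as671 and -2.11 to -0.20 for the interaction.

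The pooled CyrKO difference of miR-206-3p was -0.17 with TMM-scaled CPM, -0.20 with the replicate block and -0.25 to -0.16 without 1 library (exact permutation p of 0.0112 to 0.0772). For miR-1a-3p that range was -0.48 to 0.051 for CyrKO and -0.39 to 0.41 for Cdr1as671, and for the ratio in Cdr1as671 over WT it was -1.102 to 0.59. The replicate block changed no other call of a member. The cause was not tested.

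The share called was unstable in comparisons of the Cdr1as671 allele. Leaving out 1 library moved the 15 calls of Cdr1as671 over WT to between 0 (without WT library 1 or 3 or Cdr1as671 library 1) and 112 (without Cdr1as671 library 3), the 17 of double mutant over WT to between 6 (without WT library 3 or double mutant library 2 or 3) and 58 (without WT library 2), the 16 of double mutant over CyrKO to between 2 and 26 (without double mutant library 3 or 1) and the 5 of double mutant over Cdr1as671 to between 5 and 59 (the higher without Cdr1as671 library 3). Other settings gave 3 to 53, 16 to 61, 15 to 33 and 5 to 8 calls in the same order. The interaction had 0 to 19 calls without 1 library and 0 to 4 under other settings, against 1. The difference of the CyrKO effect had up to 5, against 3, and CyrKO hippocampus over cerebellum had as few as 355, against 538, where 447 rather than 746 miRNAs were tested. The ratios that need mmu-miR-133b-3p were not run. With 3 libraries a group, counts of 35 to 66 reads limit the precision of hippocampal miR-206-3p.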
